A study of Mus musculus with 36 samples.

Results

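The interferon-inducible p200 and AIM2-like genes make up the mouse PYHIN family, and 4 of them, Ifi204, Ifi203, Aim2 and Pyhin1, were looked up in expression arrays of CD4 T cells. A gene was taken where a row of the array table was annotated to that symbol and to no other, and the row with the highest mean was to be used where a gene had several. This gave 2 of the 4 names, Ifi204 and Aim2, among 22180 genes with such a row, each with 1 row. Ifi203 had 1 row, which was annotated to 3 symbols, and it was left out. The annotation does not use the name Pyhin1. RefSeq gives Pyhin1 as another name of Ifi209, which has its own row and is described below as a family gene. The family list held 15 names, of which 10 had a row of their own, and 7 of these passed the filter on low values: Ifi204, Aim2, Ifi209, Ifi208, Ifi213, Ifi214 and Mndal. Ifi202b, Ifi205 and Ifi207 did not pass it.

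PYHIN proteins bind DNA through a HIN domain, and most carry a pyrin domain that joins them to other pyrin proteins. AIM2 senses DNA in the cytosol and assembles with the adaptor ASC (encoded by Pycard) and caspase-1 into an inflammasome, and in regulatory T cells of the mouse it has been described to act outside the inflammasome as well. Ifi204 encodes p204, which is related to human IFI16 and has been linked in mouse macrophages to sensing of DNA upstream of STING. Most family genes were first known as genes induced by interferon, and in the mouse they lie side by side on chromosome 1.

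The samples were CD4 T cells sorted as naive cells from TRIM28KO mice (KO) and from wild-type littermates (WT), 36 arrays in 12 groups of 3. In both genotypes, cells were kept naive or received plate-bound anti-CD3 together with anti-CD28 in solution over 72 h, under Th1, Th2, Th17, Treg or Th0 conditions. TRIM28 (KAP1) is a nuclear co-repressor of transcription that works through KRAB zinc-finger proteins. The labels give no age, no cytokines for the conditions, no Cre driver for the deletion, and no word on whether each sample is a mouse of its own, so p-values measure the spread between these samples, which may be technical. Values are log2 intensities as the authors deposited them. The sample medians lay between 5.18 and 5.35 and the whole table ran between 2.05 and 13.5. A level can be compared between groups for 1 gene but not between genes, since each has its own probes.

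The labels held for the targeted gene and for genes of T cells. Trim28 lay between 5.51 and 6.58 in stimulated KO samples, between 7.20 and 7.86 in naive KO samples, and between 9.21 and 9.99 in all WT samples. The 7 T cell marker genes averaged 10.5 to 11.3 in every sample. Markers of other cells were mixed. Lyz2, Csf1r and Cd14 of the macrophage list stayed at 4.55, 5.2 and 4.54 or less, but Cd68 reached 9.17 (median 7.76 over the samples), Adgre1 10.32 and Itgam 7.87. Cd79a and Ms4a1 of the B cell list stayed at 4.98 and 3.68 or less, but Cd79b reached 6.26, H2-Ab1 10.47 and Ebf1 9.27. Of the CD8 T cell list, Cd8a lay between 4.32 and 6.50 (median 5.01 over the samples). Cd8b1 lay between 6.18 and 8.84 (median 7.76), above the table median of 5.26 in every sample. In the KO Th0 group and in the KO Th1 group the first sample stood apart from the other two. Mki67, a proliferation gene, was at 8.61 in the first KO Th0 sample against 10.86 and 10.64 in the others, and at 9.0 in the first KO Th1 sample against 10.94 and 10.93. Gzmb, which encodes granzyme B, was at 5.84 in that KO Th0 sample against 9.14 and 9.62, and at 6.07 in that KO Th1 sample against 10.02 and 10.08. Differences between KO and WT that rest on either sample are given with and without it.

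The sequence just before the transcription start is shown for 6 family genes because 4 of them carry the core of an interferon-stimulated response element and 2 do not. RefSeq promoter windows (mouse build GRCm38.p6) had an entry for 12 of the 15 family names. The letters GAAANNGAAA, searched on both strands in the 250 bases before each start, were found for 9 of these 12 genes and for 978 of 32851 windows in the whole table (2.98%). The genes without them were Aim2, Ifi202b and Ifi209. The letters TTCNNNGAA, the core of a gamma-activated site, were found for Ifi202b of the 12, and in 2306 windows of the table (7.02%). A match is a run of letters and not a measured binding site, and its absence says only that these letters are not in this window. For Mndal the window of its upstream start is shown. Each line gives the last 150 bases before the start, 5′ to 3′ on the gene's strand, with GAAANNGAAA in capitals.
Ifi208 (chr1:173673515-173673664, plus strand): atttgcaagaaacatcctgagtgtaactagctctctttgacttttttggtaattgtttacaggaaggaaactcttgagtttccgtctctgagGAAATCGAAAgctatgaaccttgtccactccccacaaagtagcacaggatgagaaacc
Ifi213 (chr1:173599273-173599422, minus strand): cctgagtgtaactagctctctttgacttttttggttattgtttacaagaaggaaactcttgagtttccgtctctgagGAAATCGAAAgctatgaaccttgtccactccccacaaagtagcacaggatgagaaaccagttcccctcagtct
Ifi214 (chr1:173535958-173536107, minus strand): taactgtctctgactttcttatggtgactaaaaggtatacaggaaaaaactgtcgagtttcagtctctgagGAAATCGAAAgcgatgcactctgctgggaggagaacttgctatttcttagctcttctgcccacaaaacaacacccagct
Mndal (chr1:173880188-173880337, minus strand): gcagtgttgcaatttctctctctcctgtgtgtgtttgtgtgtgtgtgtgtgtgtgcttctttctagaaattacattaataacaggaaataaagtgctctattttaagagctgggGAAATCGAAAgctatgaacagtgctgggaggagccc
Ifi209 (chr1:173630709-173630858, plus strand): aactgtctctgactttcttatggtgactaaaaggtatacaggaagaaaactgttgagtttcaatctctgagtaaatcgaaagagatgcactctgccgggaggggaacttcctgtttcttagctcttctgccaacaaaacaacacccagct
Aim2 (chr1:173420454-173420603, plus strand): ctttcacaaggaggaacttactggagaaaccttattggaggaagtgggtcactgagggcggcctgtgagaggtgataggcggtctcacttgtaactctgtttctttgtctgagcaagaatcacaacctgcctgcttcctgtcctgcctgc

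The capitals begin 58 bases before the start in Ifi208, 73 in Ifi213, 79 in Ifi214 and 36 in Mndal, and the letters are GAAATCGAAA in all of them. The windows of Ifi208 and Ifi213 share an unbroken run of 135 bases, and those of Ifi209 and Ifi214 one of 109 bases. Family genes are close copies of each other and could share probe signal. Probe and transcript sequences were not compared here, so whether the values of Ifi208, Ifi213, Ifi214 and Ifi209 are separate measurements is uncertain. Ifi204 is named only, without a promoter sequence.

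Ifi204 stood high in Th1 cells and low in every other condition. In Th1 conditions it was at 3.56, 6.0 and 5.96 in the KO samples, against 9.45, 8.49 and 8.95 in the WT samples. No KO Th1 sample reached the lowest WT Th1 sample, and the first KO sample lay within the range of the unpolarized cells. In Th0 conditions it was at 3.28, 3.24 and 3.18 in KO samples, against 3.48, 4.38 and 3.84 in WT samples. Over the Th17, Treg and naive groups of both genotypes it lay between 2.79 and 3.78. Th2 samples were at 3.85, 3.65 and 3.87 in KO cells, against 5.49, 3.54 and 3.32 in WT cells, so that 1 WT Th2 sample lay above all other samples outside Th1. In the order of the 12 group means, WT Th1 (8.97 ± 0.48, SD, n = 3) came first and did not overlap with the next, KO Th1 (5.18 ± 1.40, SD, n = 3), and from KO Th1 down to WT Th17 at 3.03 each group overlapped with its neighbour.

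**Figure D1:**
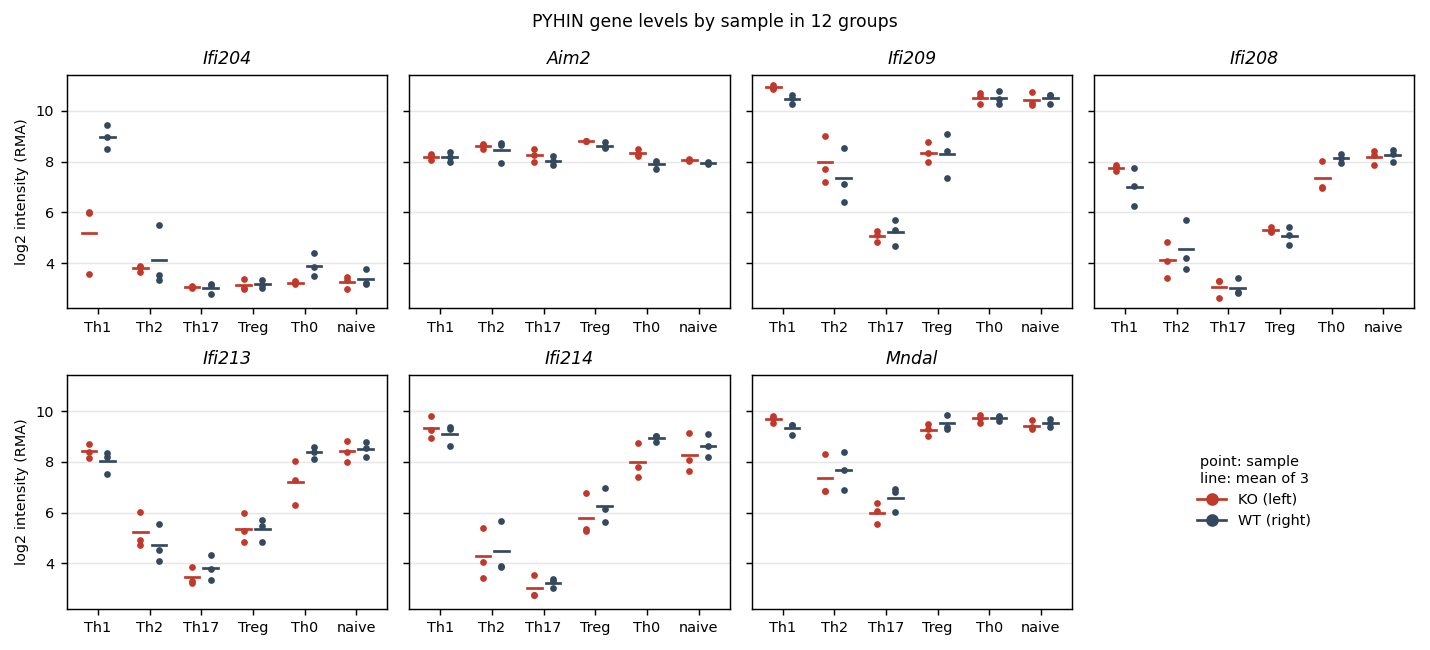
Levels of 7 PYHIN genes by sample, as log2 intensity on the vertical axis and the 6 conditions on the horizontal axis, with KO (red, left) and WT (dark, right) side by side, a point for each sample and a line for the mean of 3. Ifi204 is high in WT Th1 cells, and Aim2 lies between 7.71 and 8.82 in all samples. The other 5 genes are lower in Th17 and Th2 cells than in Th0 cells, and Ifi208, Ifi209, Ifi213 and Ifi214 also in Treg cells. Heights are not comparable between genes.

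Ifi204 was chosen by its Th1 levels, in which the KO and WT samples were known to differ, and the gene passed the filter through its Th1 samples, so the contrasts that hold Th1 are described without a test or an error. No detection calls were used, and a group whose mean lies under the table median of 5.26 may not be above background, so a fold against such a group is given as a lower bound. Ifi204 was 5.07 (log2) higher in WT Th1 cells than in WT Th0 cells, or at least 33.5-fold. It was 3.79 (log2) lower in KO than in WT Th1 cells, or at least 13.8-fold between the group means. The KO Th1 mean of 5.18 lies under 5.26, so by this rule the fold is a lower bound for these samples. That mean lies under 5.26 only through its first sample (3.56, against 6.0 and 5.96). Without the first KO Th1 sample the KO minus WT difference was -2.98. Over all 13082 genes tested with limma, 10.8% passed between WT Th1 and WT Th0 cells and 40.7% between KO and WT Th1 cells, 23.7% of them all being lower in KO. The mean KO minus WT difference over the 6 conditions was -0.82 for Ifi204, which held Th1 as well.

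Interferon gamma, encoded by Ifng, moved with Ifi204. Ifng was at 6.35, 8.02 and 10.20 in KO Th1 samples, against 9.84, 10.57 and 10.69 in WT Th1 samples, and it was 2.18 ± 0.51 (log2, SE) lower in KO Th1 cells (limma, adjusted p = 0.0011). Without the first KO Th1 sample Ifng was 1.25 ± 0.42 (log2, SE) lower (limma, adjusted p = 0.024). The third KO Th1 sample lay within the WT range for Ifng but not for Ifi204. Of 11 GTPases induced by interferon gamma, none was lower and 1 (Irgm2, 0.74) was higher in KO Th1 cells. Their median was 0.19, in a comparison in which 23.7% of all genes were lower. Without the first KO Th1 sample none of the 11 passed, and their median was 0.20. In WT cells Ifng was 4.64 ± 0.51 (log2, SE) higher in Th1 than in Th0 conditions (limma, adjusted p = 1.3e-07). The genes whose profile over the 12 group means was most like that of Ifi204 were Cyp27a1 (Pearson r = 0.98), Ptger3 (0.97), Samd3 (0.96), Kmo (0.95) and Ifng (0.95). These correlations describe 12 means that 2 Th1 groups dominate, and they carry no p. Markers used for NK cells also differed between these groups. The mean of 7 such genes lay between 4.45 and 4.73 in KO Th1 samples and between 5.35 and 5.57 in WT Th1 samples, with 2 of the 7 above the table median in KO Th1 and 4 in WT Th1, and it lay between 4.24 and 4.41 in WT Th0 samples. The 4 that rose in WT Th1 cells were Klrk1, Eomes, Klrc1 and Gzma, by 1.25 to 2.88 on the log2 scale. Of the others, Ncr1 and Klrb1c stayed at 4.93 and 4.21 or less in every sample, and Tyrobp lay between 4.94 and 5.52. Klrc1 had its highest group mean in WT Th17 cells (8.52) and Gzma in KO Th2 cells (10.6). The part of these genes in the Ifi204 difference was not tested. In these bulk samples fewer cells of a kind and less RNA per cell cannot be told apart.

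In WT cells Ifi204 differed from Th0 by 0.22 in Th2 conditions (limma, adjusted p = 0.74), by -0.86 in Th17 conditions (0.13) and by -0.74 in Treg conditions (0.20), and by 0.51 between Th0 and naive cells (0.36), none of which passed. When the model held just the 2 groups compared, the Th17 and Treg differences did pass (limma, adjusted p = 0.014 and 0.027). The WT means of Ifi204 were 3.90 in Th0, 3.03 in Th17 and 3.16 in Treg conditions, all under the table median. These groups may not be above background, so the passing calls cannot show whether Ifi204 itself changed between them.

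Outside Th1, no KO difference of Ifi204 passed the test. Every group mean of Ifi204 outside Th1 lay under the table median of 5.26, so a fall in KO cells could go unseen there. KO minus WT was -0.67 in Th0 cells (limma, adjusted p = 0.26, and 0.045 with just these 2 groups in the model), -0.33 in Th2 cells (0.70), 0.03 in Th17 cells (0.99), -0.02 in Treg cells (0.99) and -0.14 in naive cells (0.98). The 95% intervals of these 5 differences ran from -1.58 at the lowest bound to 0.94 at the highest. The difference of the KO effect between Th1 and Th0 conditions was -3.12 (log2), again without a test, and -2.32 without the first KO Th1 sample.

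Aim2 varied over a small range. Its 36 values lay between 7.71 and 8.82. It was highest in Treg conditions, at 8.81, 8.82 and 8.82 in KO samples and at 8.58, 8.52 and 8.76 in WT samples. KO Treg samples all lay above WT Treg samples, and from WT Treg down to WT Th0 each group in the order of means overlapped with the next. In WT cells Aim2 was at 8.58, 8.52 and 8.76 in Treg conditions, against 7.71, 8.03 and 7.96 in Th0 conditions. That is a rise of 0.72 ± 0.15 (log2, SE), or 1.64-fold (limma, adjusted p = 0.00028), in a comparison in which 41.6% of genes passed and 19.2% were higher. In Th2 conditions WT samples were at 7.93, 8.66 and 8.74, and the rise over Th0 was 0.55 ± 0.15 (log2, SE), or 1.46-fold (limma, adjusted p = 0.0043). The first WT Th2 sample overlapped with the Th0 samples. Without the third WT Th2 sample the rise was 0.40 (adjusted p = 0.056), and when the model held just the WT Th2 and Th0 samples the adjusted p was 0.081. Aim2 differed by 0.29 between Th1 and Th0 (adjusted p = 0.27), by 0.13 between Th17 and Th0 (0.52) and by -0.04 between Th0 and naive cells (0.86), none of which passed.

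In KO cells Aim2 was slightly higher under Th0 conditions. It was at 8.29, 8.23 and 8.49 in KO Th0 samples, against 7.71, 8.03 and 7.96 in WT Th0 samples, without overlap. The rise was 0.44 ± 0.15 (log2, SE), or 1.35-fold (limma, adjusted p = 0.022), where 36.4% of genes passed and 16.8% were higher in KO. It did not pass without the first WT Th0 sample (0.34, adjusted p = 0.12) or without the third KO Th0 sample (0.36, adjusted p = 0.10). In Th1 cells the difference was 0.01, with a 95% interval of -0.30 to 0.31. Averaged over the 6 conditions Aim2 was 0.19 ± 0.06 (log2, SE) higher in KO, or 1.14-fold (limma, adjusted p = 0.011), where 46.4% of genes passed and 18.9% were higher. In Th2, Th17, Treg and naive cells the differences were 0.16, 0.22, 0.20 and 0.13, and none passed. The genes most like Aim2 over the 12 group means were Mospd1 (Pearson r = 0.91), Snapin (0.89), Treml2 (0.88), Mtmr3 (0.87) and 1700016L21Rik (0.86), over a profile whose whole range is small.

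The remaining 5 tested family genes, Ifi209, Ifi208, Ifi213, Ifi214 and Mndal, shared a profile over the conditions. In WT cells all 5 were lower in Th2 and in Th17 conditions than in Th0 conditions, and all but Mndal were lower in Treg conditions. These comparisons share the WT Th0 samples. Between WT Th0 and naive cells none of the 7 family genes passed the test, at an adjusted or an unadjusted p under 0.05 (limma), while 53.6% of all genes passed.

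Ifi209, the gene also named Pyhin1, was at 8.54, 7.10 and 6.39 in WT Th2 samples, at 4.67, 5.29 and 5.70 in WT Th17 samples, at 7.37, 8.42 and 9.11 in WT Treg samples and at 10.46, 10.26 and 10.79 in WT Th0 samples. None of the first 3 groups overlapped with Th0. The fall against Th0 was 3.16 ± 0.42 (log2, SE) or 8.93-fold in Th2 cells (limma, adjusted p = 5.8e-07), and 5.28 ± 0.42 or at least 38.9-fold in Th17 cells (limma, adjusted p = 2.9e-11). In Treg cells Ifi209 was 2.21 ± 0.42 (log2, SE) lower, or 4.61-fold (limma, adjusted p = 9.3e-05). WT Th1 samples of Ifi209, at 10.51, 10.27 and 10.63, overlapped with Th0 samples.

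Ifi214 was at 5.66, 3.91 and 3.84 in WT Th2 samples, at 3.39, 3.29 and 3.04 in WT Th17 samples, at 5.65, 6.15 and 6.99 in WT Treg samples and at 9.03, 8.78 and 9.03 in WT Th0 samples. In Th17 cells, where Ifi214 lay as low as family genes that never passed the filter, it was 5.71 ± 0.50 (log2, SE) or at least 52.2-fold lower than in Th0 cells (limma, adjusted p = 2.2e-10). In Th2 cells it fell by 4.48 ± 0.50, or at least 22.2-fold (limma, adjusted p = 3.1e-08), and in Treg cells it was 6.43-fold lower (limma, adjusted p = 7.5e-05). Every WT Th2, Th17 and Treg sample of Ifi214 lay below every WT Th0 sample.

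Ifi208 was at 5.68, 4.18 and 3.77 in WT Th2 samples, at 3.39, 2.80 and 2.84 in WT Th17 samples, at 5.11, 4.73 and 5.41 in WT Treg samples and at 8.32, 7.95 and 8.15 in WT Th0 samples. Its levels were lower than in Th0 cells by at least 12.1-fold in Th2, at least 34.9-fold in Th17 and at least 8.34-fold in Treg conditions (limma, adjusted p = 1.3e-08, 8.1e-12 and 2.5e-07). Ifi213, close to Ifi208 in its promoter, was at 5.56, 4.52 and 4.08 in WT Th2 samples, at 4.33, 3.76 and 3.36 in WT Th17 samples, at 4.84, 5.48 and 5.71 in WT Treg samples and at 8.60, 8.13 and 8.40 in WT Th0 samples. Th2 cells had at least 12.6-fold, Th17 cells at least 23.5-fold and Treg cells 8.17-fold less Ifi213 than Th0 cells (limma, adjusted p = 2.6e-08, 2.6e-10 and 6.8e-07). For both genes the polarized samples lay below all Th0 samples. In Th1 cells Ifi208 differed by -1.13 ± 0.38 (log2, SE) from Th0 (limma, adjusted p = 0.056), and the adjusted p was 0.026 with the replicate number as a block and 0.016 without the first WT Th1 sample.

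Mndal, named for its likeness to human MNDA, was lower in Th2 and Th17 cells and did not pass the test in Treg cells. It was at 8.39, 7.70 and 6.90 in WT Th2 samples, at 6.02, 6.81 and 6.91 in WT Th17 samples, at 9.37, 9.31 and 9.86 in WT Treg samples and at 9.63, 9.81 and 9.77 in WT Th0 samples. It fell 4.20-fold in Th2 cells and 8.91-fold in Th17 cells (limma, adjusted p = 4.3e-06 and 2.1e-09). Treg and Th0 samples overlapped, with a difference of -0.22 and a 95% interval of -0.86 to 0.42 (limma, adjusted p = 0.61).

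Of the 7 family genes tested, 5 were lower and 1 was higher in WT Th2 than in Th0 cells, where 40.1% of all genes passed, 22.9% lower and 17.2% higher. In Th17 cells 5 of 7 were lower, where 39.1% of all genes passed and 18.8% were lower, and in Treg cells 4 were lower and 1 higher, against 22.4% and 19.2% of all genes. The family medians were -3.16 in Th2, -4.56 in Th17 and -2.21 in Treg cells, beside -0.06, -0.04 and -0.002 over all genes tested. Between Th1 and Th0 cells none of the 6 genes tested passed (limma), where 10.8% of all genes passed, and 1, Ifi208, had an unadjusted p under 0.05. In the Th2 groups the samples numbered 1 stood highest for all 5 genes in both genotypes, for example 9.03 against 7.71 and 7.21 for Ifi209 in KO Th2 samples.

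**Figure D2:**
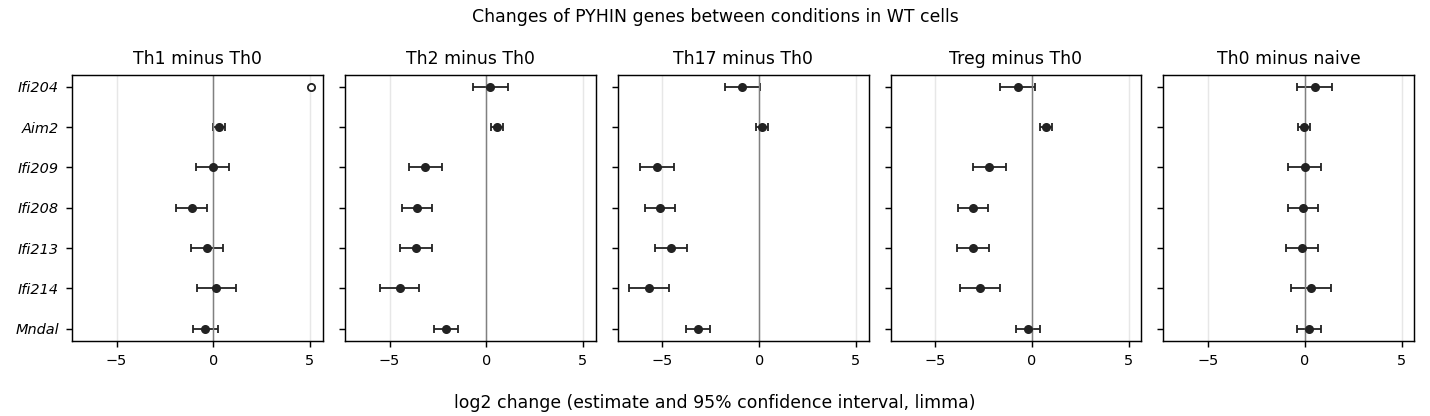
Log2 changes of 7 PYHIN genes between conditions in WT cells (horizontal axis), with the limma estimate as a point and its 95% interval as a bar, for Th1, Th2, Th17 and Treg minus Th0 and for Th0 minus naive. Ifi209, Ifi208, Ifi213 and Ifi214 lie left of 0 in Th2, Th17 and Treg cells, and Ifi204 lies at 5.07 in Th1 cells, an open point without a bar because that contrast was not tested.

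Over the 12 group means, Ifi208, Ifi209, Ifi213 and Ifi214 ran together, with pairwise Pearson r between 0.96 and 0.98, and Mndal correlated with them at 0.84 to 0.92. Ifi204 correlated with these 5 genes at 0.24 to 0.45, and Aim2 with them at -0.49 to -0.08. These values describe the profiles, share all 36 arrays and, for the close paralogs, could share probe signal. The genes most like Ifi208 were Ddx58 (r = 0.98), Daxx (0.98), Shfl (0.97), Nmi (0.97) and Cntrl (0.97), and Nmi or Daxx was also among the 5 most like Ifi209, Ifi213 and Ifi214. Ddx58 encodes the RNA sensor RIG-I. Trim14 (0.97) was the most like Mndal.

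Most type I interferon-stimulated genes and most GTPases induced by interferon gamma moved along with the 5 family genes in WT cells. Of 28 type I interferon-stimulated genes tested, 27 were lower in Th2, 28 in Th17 and 26 in Treg than in Th0 cells and none was higher, with medians of -1.25, -1.44 and -2.27. Of all genes tested, 22.9% were lower in Th2, 18.8% in Th17 and 22.4% in Treg cells. Among the type I genes, Oasl2 changed by -4.50 and Rtp4 by -3.77 on the log2 scale in Th2 cells, Rtp4 by -5.19 and Oas2 by -5.01 in Th17 cells, and Oas2 by -4.83 in Treg cells. A list of 18 genes of interferon signaling was mixed. Of these, 7 were lower in Th2, 8 in Th17 and 7 in Treg than in Th0 cells, and 3, 4 and 3 were higher. Their medians were -0.26, -0.28 and -0.08. Jak2 rose by 1.49 in Th2 and by 1.25 in Th17 cells, and the largest falls of the list were in Usp18 and Irf7. Irf7, a transcription factor of the interferon response, changed by -1.71 in Th2, -2.78 in Th17 and -3.08 in Treg cells. Usp18, an interferon-induced brake on the type I receptor, changed by -2.47, -4.10 and -5.55 in the same order. Of 11 GTPases induced by interferon gamma, 9 were lower in each of the 3 conditions and 1 was higher in Th17 cells, and Iigp1 changed by -4.47, -4.12 and -4.75 in these conditions. In Th1 cells 1 of the 28 type I genes (Ddx58, -0.51) was lower and 2 of the 11 GTPases (Gbp5, 1.67, and Gbp3, 0.88) were higher than in Th0 cells. Of all genes tested, 10.8% passed between Th1 and Th0 cells.

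Of 19 genes of cytosolic DNA sensing, 13 were lower in Th2, 10 in Th17 and 10 in Treg than in Th0 cells of the WT, and 1 was higher in Th17 and 1 in Treg cells, with medians of -0.38, -0.30 and -0.26. Over all genes 22.9% were lower in Th2, 18.8% in Th17 and 22.4% in Treg cells. Cgas, which encodes the enzyme that makes the STING ligand, changed by -1.36, -1.30 and -1.63, and Zbp1, a sensor of Z-form nucleic acid, fell by 2.10 in Treg cells. Among 9 inflammasome genes, 2 were higher and 5 lower in Treg than in Th0 cells, where 19.2% of all genes were higher and 22.4% lower. Pycard rose by 0.40 in Treg cells, as Aim2 rose by 0.72, while Casp1 fell by 1.23 and Casp4 changed by -2.0. Between Th1 and Th0 cells Casp4 was 2.02 and Casp1 0.85 higher. Markers of other cells differed between some of these groups. The mean of 9 B cell markers lay between 5.51 and 5.55 in WT Th17 samples, against 4.58 to 4.71 in WT Th0 samples. Ebf1 rose by 4.21 and H2-Ab1 by 4.04 (log2) there, while Cd79a and Ms4a1 stayed at 4.98 and 3.68 or less in every sample. Adgre1, a macrophage gene, was 3.74 (log2) higher in WT Th2 than in WT Th0 cells. The part of such genes in the falls was not tested.

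**Figure D3:**
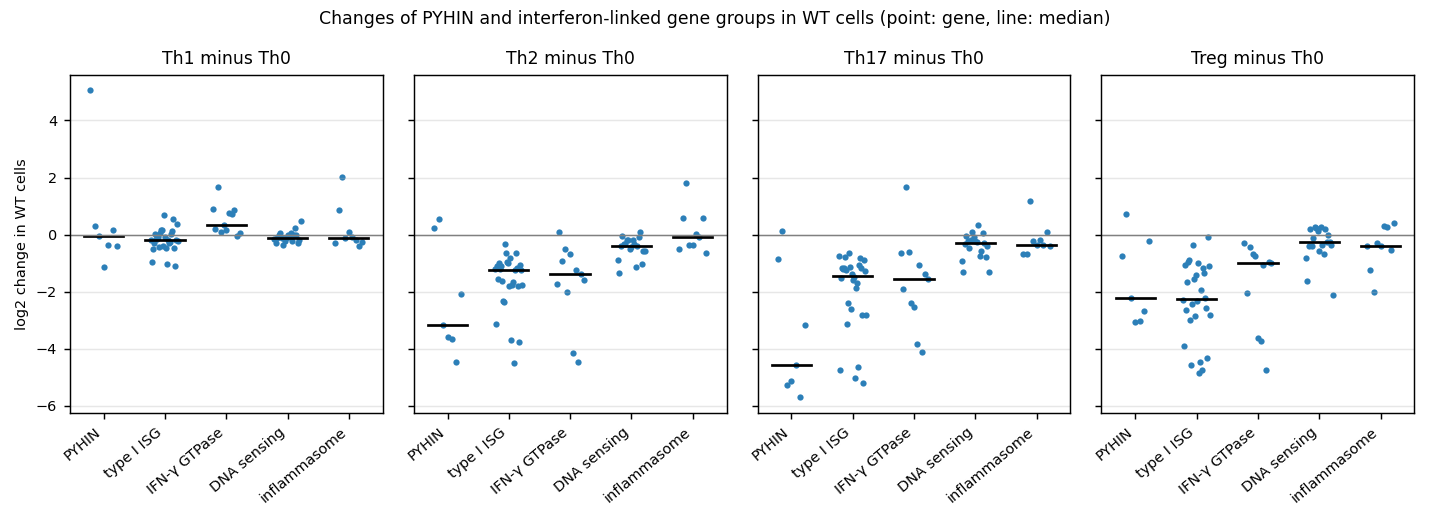
Log2 changes of single genes (points) and their medians (lines) in WT Th1, Th2, Th17 and Treg cells relative to Th0, for the PYHIN family, type I interferon-stimulated genes (ISG), GTPases induced by interferon gamma, cytosolic DNA sensing and inflammasome genes. Medians of every group shown lie below 0 in Th2, Th17 and Treg cells, and the single high PYHIN point in Th1 is Ifi204.

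Between KO and WT cells, 1 of these 5 genes passed the test, Ifi213 under Th0 conditions. It was at 6.28, 8.05 and 7.30 in KO Th0 samples, against 8.60, 8.13 and 8.40 in WT Th0 samples, without overlap. The fall was 1.16 ± 0.40 (log2, SE), or 2.24-fold (limma, adjusted p = 0.024), where 19.6% of genes were lower in KO. Without the first KO Th0 sample it was -0.70 (adjusted p = 0.22). It also did not pass without the first WT Th0 sample (adjusted p = 0.079), without the third (0.057) or with just these 2 groups in the model (0.061). Ifi208 and Ifi214 differed by -0.80 and -0.96 in Th0 cells (adjusted p = 0.10 and 0.14), and Ifi208 passed at -1.15 (adjusted p = 0.030) without the second KO Th0 sample. Ifi209 and Mndal differed by 0.01 and -0.02.

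Most type I interferon-stimulated genes were lower in KO Th0 cells as well, in a comparison in which 19.6% of all genes were lower and 16.8% higher in KO. Of the 28 type I genes, 22 were lower in KO Th0 cells with a median of -1.11, and Oasl2 and Oas2 changed by -3.57 and -3.41. Without the first KO Th0 sample 18 of the 28 were lower with a median of -0.92, and these genes changed by -2.69 and -2.79. A list of 18 genes of interferon signaling was mixed, with 4 lower and 7 higher in KO Th0 cells and a median of 0.13 over all samples. Irf7, among the lower ones, was at 7.73, 8.90 and 8.28 in KO Th0 samples, against 9.70, 9.68 and 9.84 in WT Th0 samples. The difference was -1.44, or -1.15 without the first KO sample (limma, adjusted p = 6.7e-05 and 0.0016). Of the 19 DNA sensing genes 10 were lower and 2 higher in KO Th0 cells, or 6 and 2 without that sample, and Cgas changed by -1.55, or -1.35 without it. Of the 11 GTPases 1, Irgm1, was lower, and none without that sample (limma, adjusted p = 0.54 for Irgm1), when 1 was higher. Proliferation genes moved in the same comparison, with 21 of 21 lower in KO Th0 cells at a median of -1.86, or 19 at -1.27 without that sample, and their part was not tested.

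In Th1 cells none of the 6 family genes tested differed between KO and WT at an adjusted or an unadjusted p under 0.05 (limma). Of all genes tested, 40.7% passed in this comparison at an adjusted p under 0.05, and 23.7% were lower in KO. Ifi209 was at 11.01, 10.85 and 10.91 in KO Th1 samples, against 10.51, 10.27 and 10.63 in WT Th1 samples, without overlap, and KO minus WT was 0.45 (limma, adjusted p = 0.42, and 0.022 with just these 2 groups in the model). The other differences in Th1 cells were 0.74 for Ifi208 (1.11, adjusted p = 0.033, without the first WT Th1 sample), 0.39 for Ifi213, 0.25 for Ifi214 and 0.36 for Mndal. All of these lay on the opposite side of 0 from the Ifi204 difference of -3.79. Of the 28 type I genes, 15 were lower and 1 higher in KO Th1 cells, at a median of -0.64, and all 21 proliferation genes were lower at a median of -1.43. Without the first KO Th1 sample 12 type I genes were lower and 1 higher, at a median of -0.57, and 9 proliferation genes were lower, at a median of -0.83.

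None of the 7 family genes passed between KO and WT cells in Th2, Th17, Treg or naive conditions, at an adjusted or an unadjusted p under 0.05 (limma). Over all genes 16.4% passed in Th2, 8.21% in Th17, 4.22% in Treg and 1.15% in naive cells. Among the 5 family genes other than Ifi204 and Aim2, the largest difference in these conditions was 0.64 for Ifi209 in Th2 cells, with a 95% interval of -0.22 to 1.49, and without the first WT Th2 sample it passed at 1.24 (limma, adjusted p = 0.037). In Th17 cells Mndal was at 5.57, 6.06 and 6.37 in KO samples, against 6.02, 6.81 and 6.91 in WT samples, a difference of -0.58 (adjusted p = 0.30). KO Treg samples of Ifi209, at 7.98, 8.32 and 8.76, lay within the range of the WT Treg samples. Whether the KO minus WT difference itself differed from that in Th0 cells was tested for every family gene in each other condition, except Ifi204 in Th1, and none passed at an adjusted p under 0.05 (limma). Over all genes 0.589% passed this test for Th1, 10.2% for Th2, 15.6% for Th17 and 27% for Treg, and 18.5% for Th0 against naive cells. At an unadjusted p under 0.05 there were Ifi208 and Ifi213 for Th1, Ifi213 for Th2 and Ifi213 for Treg. For Th2, Ifi213 passed without the first WT Th2 sample (2.09, adjusted p = 0.016), without the second KO Th0 sample (2.09, 0.016) or without the second KO Th2 sample (1.91, 0.046), and Aim2 passed without the first WT Th2 sample (-0.54, 0.039). For Treg, Ifi213 passed without the second KO Th0 sample (1.60, 0.035).

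**Figure D4:**
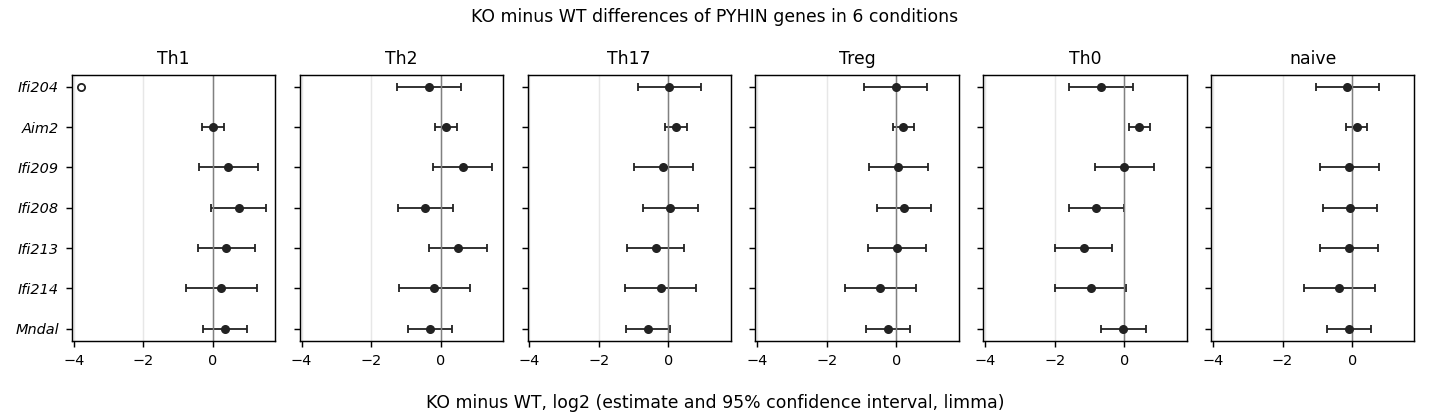
KO minus WT differences of 7 PYHIN genes in 6 conditions (log2, horizontal axis), with the limma estimate as a point and its 95% interval as a bar. Ifi204 lies at -3.79 in Th1 cells, an open point without a bar because that contrast was not tested, and Ifi213 at -1.16 and Aim2 at 0.44 in Th0 cells passed the test.

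The 3 family genes below the filter stayed low in all groups. Ifi202b lay between 2.97 and 3.32, Ifi205 between 3.08 and 3.92, and Ifi207 between 3.8 and 5.61, with its highest value in the third KO Th1 sample. In RefSeq's gene order (GRCm38.p6) the family runs as Aim2, Ifi206, Ifi214, Ifi213, Ifi209, Ifi208, Ifi207, Ifi204, Ifi203-ps, Mndal, Ifi211, Ifi203, Ifi202b and Ifi205. Ifi204, the gene with the Th1 level, thus stands between Ifi207 and Ifi203-ps, and Ifi203-ps lay between 2.82 and 5.2. Of the 20 protein-coding genes that flank the family, 10 on each side, 19 had a row, and none passed the filter on low values.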

How the data were processed

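The authors deposited log2 intensities of 41345 probe sets in 36 mouse CD4 T cell arrays, and the submitters' processing notes name RMA, oligo and R 3.1.0. The values were used without further scaling. The array build, annotation version and package versions are not given in the sources used here. Probe sets were named by GEO's platform annotation, with exactly 1 symbol for 23521, several for 1814 and none for 16010. This left 22180 genes with a row of their own (the row with the highest mean where a gene had several). The test was run on 13082 genes, those that exceeded 5.26, the median of all deposited values, in 3 samples or more.

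A limma 3.58.1 model (R 4.3.3, files read with the data.table package, 1.17.8) with a mean for each of 12 groups was fitted to all 36 samples (24 residual degrees of freedom, 27.9 with the prior), and 17 comparisons were read from it, with Benjamini-Hochberg adjustment within each and calls at an adjusted p under 0.05. The steps were tested on simulated data. The members and gene lists were chosen with earlier results of these data known. Named were the members, the family genes, up to 4 changed genes of each other list, the 5 genes most like a family gene over the 12 group means, the neighbours in the gene cluster and a few context genes. As a check of pairing, residuals about the group means were correlated between samples of the same number, and were above 0.1 for all 3 numbers between WT Th1 and WT Th0 (0.39, 0.33 and 0.23) and between WT Th2 and WT Th0 (0.25, 0.12 and 0.11); the fit held no block. Alternatives were other filters, scalings, priors, weights, probe sets and sample sets, the replicate block, and each sample left out in turn. The number of arrays limits the precision. Promoter windows came from RefSeq (GRCm38.p6).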

Additional observations from a re-analysis of the deposited data

Results flagged for a closer look

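The KO minus WT difference of Ifi204 was larger in Th1 than in Th0 conditions. KO minus WT was -3.79 in Th1 and -0.67 in Th0 conditions (log2), a difference of -3.12, with all 3 KO samples below all 3 WT samples in both conditions. This contrast was known before the gene was chosen, so it is a description and its p is not given. The difference was -2.32 without the first KO Th1 sample, and -2.29 without the first KO samples of both conditions. In Th0 conditions Ifi204 averaged 3.23 in KO and 3.90 in WT samples. Both means lay under the table median of 5.26, so a KO fall there had little room to show.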

How the results depend on the processing

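The falls of Ifi208, Ifi209, Ifi213, Ifi214 and Mndal in WT Th2 and Th17 cells, and of the first 4 in WT Treg cells, and the rise of Aim2 in WT Treg cells kept their call under every alternative run and with each sample left out, with Ifi214 between -5.07 and -4.16 in Th2, between -5.82 and -5.61 in Th17 and between -3.05 and -2.32 in Treg cells. With the replicate block, the number of family genes lower in WT Th1 than Th0 cells was 1 against 0 (Ifi208, adjusted p = 0.026); it was also 1 with a block shared by both genotypes (chosen after seeing the data), a stricter filter or array weights, and the block changed no other call named here. Median centering shifted all genes by 0.12 (log2) between WT Th0 and naive cells. Array weights gave 1 family gene higher in KO Th2 cells (Ifi209), 1 lower in KO Th17 cells (Mndal, -0.83), 1 lower in KO Treg cells (Ifi214, -1.21) and 1 higher in the difference of the KO effect between Th2 and Th0. A fit to only the groups compared gave 1 gene higher in KO Th1 cells and 0 higher in WT Th2 cells. Without the first KO Th0 and KO Th1 samples, 0 family genes were lower in KO Th0 cells. The causes were not tested.

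The changes of sign were all in values that passed no test as reported. With array weights these were Aim2 in KO against WT Th2 cells (-0.032), Ifi204 in KO Th17 (-0.0084) and KO Th2 (0.14), Ifi204 in WT Th2 minus Th0 (-0.27), Ifi208 in KO naive (0.0084), Ifi209 in KO Th0 (-0.072), KO Treg (-0.58) and WT Th0 minus naive (0.14), Ifi213 in KO Treg (-0.41) and Ifi214 in KO Th2 (0.28). With median centering they were Aim2 in KO Th1 (-0.078) and WT Th0 minus naive (0.083), Ifi204 in KO Th17 (-0.012), Ifi208 in WT Th0 minus naive (0.0076), and Ifi209 in KO Th0 (-0.060) and WT Th0 minus naive (0.12). Quantile normalization again turned Aim2 in KO Th1 (-0.015) and Mndal in KO Th0 (0.0031), and leaving out both first KO samples turned Mndal in KO Th0 (0.064).

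With each sample left out in turn, KO effects that crossed 0 ranged for Aim2 from -0.088 to 0.10 in Th1 and -0.10 to 0.31 in Th2; for Ifi204 from -0.095 to 0.099 in Th17, -0.72 to 0.36 in Th2, -0.15 to 0.055 in Treg and -0.24 to 0.059 in naive cells; for Ifi208 from -0.059 to 0.27 in Th17, -0.83 to 0.13 in Th2 and -0.20 to 0.086 in naive cells; for Ifi209 from -0.12 to 0.15 in Th0, -0.43 to 0.090 in Th17, -0.41 to 0.46 in Treg and -0.23 to 0.017 in naive cells; for Ifi213 from -0.29 to 0.29 in Treg and -0.31 to 0.11 in naive cells; for Ifi214 from -0.72 to 0.42 in Th2; and for Mndal from -0.094 to 0.064 in Th0 and -0.80 to 0.047 in Th2. The Ifi204 difference of the KO effect between Th2 and Th0 ranged from -0.058 to 1.03. In WT Th0 minus naive, Aim2 ranged from -0.10 to 0.060, Ifi208 from -0.25 to 0.0014, Ifi209 from -0.14 to 0.12 and Ifi213 from -0.28 to 0.0074. Ifi204 ranged from -0.47 to 0.62 in WT Th2 minus Th0 and Ifi209 from -0.15 to 0.11 in WT Th1 minus Th0. Counts of family genes ranged from 0 to 1 for those higher in KO Th0, KO Th1, KO Th2 and WT Th2 cells, from 0 to 2 for those lower in KO Th0, and from 0 to 1 for those lower in WT Th1; in the differences of the KO effect they ranged from 0 to 1 for Th2 against Th0 in both directions and for Treg against Th0, higher. The sample without which each call changed is named beside its result.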

Other observations

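Several genes used as markers of other cells stood high in single groups of these sorted CD4 T cells. Adgre1 averaged 9.74 in KO Th2 cells, Gzma 10.6 in KO Th2 cells, H2-Ab1 10.2 in WT Th2 cells, Ebf1 8.90 in KO Th17 cells, Klrc1 8.52 in WT Th17 cells and Eomes 7.90 in WT Th1 cells. The B cell genes Cd79a and Ms4a1 stayed at 4.98 or less and 3.68 or less in every sample, while Cd79b reached 6.26 and averaged 6.09 in KO Th2 cells.

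Some inflammasome genes differed between stimulated and naive WT cells while Aim2 did not pass the test. In WT cells Casp4 was 2.79 and Casp1 2.22 higher (log2) in Th0 than in naive cells, and 6 of the 9 inflammasome genes tested were higher and 2 lower. Over all 13082 genes 4085 were higher and 2921 lower in that comparison. Cgas rose by 1.46 and Rnaseh2b, a subunit of the nuclease that removes RNA from DNA, by 1.82 in the same comparison. Aim2 differed by -0.04 there, with an adjusted p of 0.86 (limma).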
